A study of Cucumis sativus and Manihot esculenta and Brachypodium distachyon with 34 samples.

Results

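Regions with methylation at CHH sites (mCHH regions) and with a mix of 21, 22 and 24 nt small RNAs, called mixed regions here, numbered 8802 of 809247 mCHH regions in 6 plant species. They were selected on the small RNA reads. A region had to be at least 50 and under 2000 bp long and to have 20 or more reads over the lengths of 20, 21, 22, 24, 25 and 26 nt (an eligible region, 248751 in all), and the 21, 22 and 24 nt reads each had to make up 20% to 50% of these reads. The mCHH level, the position and the neighbours of a region were not used to select it.

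Plants make short interfering RNAs (siRNAs) of distinct lengths with different Dicer-like (DCL) enzymes. In *A. thaliana*, DCL3 makes the 24 nt siRNAs that guide RNA-directed DNA methylation (RdDM), mostly at transposons and their edges. RdDM is a pathway that places new methylation on cytosines, CHH sites (H is A, T or C) among them. By the paper, the enzyme CMT2 also methylates CHH sites, mainly in the bodies of transposons, so an mCHH region need not come from RdDM. DCL4 and DCL2 make siRNAs of 21 and 22 nt, which are best known for silencing after transcription, of viruses, of transgenes and of transposons that are being transcribed, and which can also lead methylation to active transposons. A region with all 3 lengths in similar amounts therefore carries products of the kinds made by more than one Dicer. The files sort reads by length alone, so siRNAs cannot be told apart from microRNAs or from fragments of longer RNAs of the same length, and reads of 23 nt have no column.

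The data came from leaf tissue with 1 small RNA library and 1 set of mCHH regions per species: cucumber (*C. sativus*, GY14), a eucalypt (*E. grandis*, BRAZUS1), the salt-tolerant crucifer *E. salsugineum* (Shandong), castor bean (*R. communis*, no accession given), the grass *P. hallii* (FIL2) and the legume *M. truncatula* (F83 in the labels, while the study's list of methylomes names another accession). No plant was treated, and no species had a second small RNA library, so there is no replicate error. A methylome is a sequencing of bisulfite-converted DNA, in which only methylated cytosines stay cytosines. *C. sativus* had 2 methylomes, and the files do not say which of them gave its regions. Each comparison below was made within a species, and the values of the species were then compared by an exact two-sided sign-flip permutation test. *E. grandis* had no mixed region, so 5 species entered, and the smallest p that 5 species can give is 0.0625. No result could therefore pass a threshold of 0.05.

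Reads are mapped hits, and a read that matched several places was counted at each of them. Libraries differed in mapped hits, from 2614647 in *E. grandis* to 160311702 in *P. hallii*. Mapped hits are not sequencing depth, since the study's list of libraries gives more hits than mapped reads. The hits per mapped read also differed between species. On the scale of hits, 20 reads stood for 7.65 RPM (mapped hits per 1000000 of the library) in *E. grandis*, 1.11 in *C. sativus* and 0.738 in *R. communis*. They stood for 0.272 RPM in *M. truncatula*, 0.151 in *E. salsugineum* and 0.125 in *P. hallii*. The number of reads at each methylated site was not in the files, so the depth behind the mCHH level of a single region is unknown. By the study's list of methylomes, *R. communis* had the lowest coverage of these species. It also had the highest rate of unmethylated cytosines left unconverted, and what this does to its mCHH levels was not tested.

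Mixed regions were mostly found in 1 species. *P. hallii* held 7338 of them, which was 83.4% of all mixed regions and 7.19% of its 102108 eligible regions (95% Wilson interval 7.03% to 7.35%, which covers counting error only, as do the other intervals given here). *C. sativus* held 880, or 2.95% of 29829 eligible regions (2.76% to 3.15%), and *R. communis* held 238, or 2.71% of 8779 (2.39% to 3.07%). The intervals of these 2 species overlapped. *E. salsugineum* held 198, or 0.33% of 60073 (0.287% to 0.379%), and *M. truncatula* 148, or 0.312% of 47367 (0.266% to 0.367%), and these 2 species overlapped as well. In *E. grandis*, 0 of 595 eligible regions were mixed, a share of 0%, which allows a share of up to 0.504% (3 counts of the total). That limit lies above the shares of *E. salsugineum* and *M. truncatula* and below those of the other species. Since the lengths chose the regions, these shares describe the libraries and were not tested.

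The number of mapped hits in a library changes what 20 reads stand for. A common level of RPM sets the species alike in mapped hits, and not in sequenced reads. The same RPM also stands for more reads in a library with more hits. The shares of the 3 lengths then rest on more reads there, and their counting error differs between species. When only regions with at least 7.65 RPM were kept in every species, the abundance of 20 reads in the shallowest library, 210 of 4838 regions were mixed in *P. hallii* (4.34%, 3.80% to 4.95%) and 163 of 7435 in *C. sativus* (2.19%, 1.88% to 2.55%). At this abundance *R. communis* kept 1 of 794, *E. salsugineum* 1 of 6950, and *M. truncatula* 0 of 3233. *P. hallii* stayed first and *C. sativus* second, while *R. communis* no longer lay near *C. sativus*. The interval of *R. communis* then reached from 0.0222% to 0.710%.

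**Figure D1:**
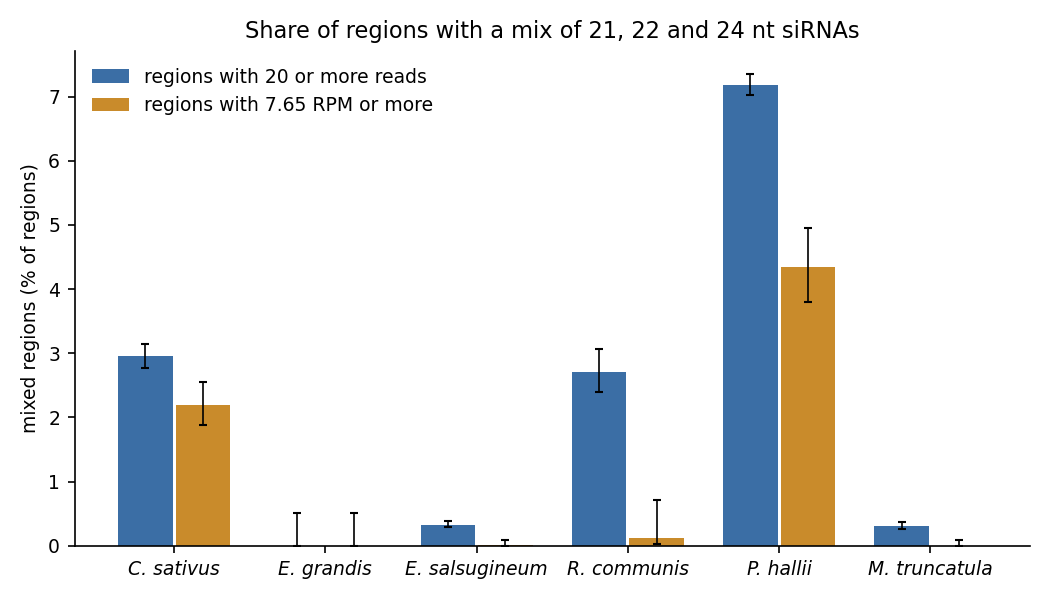
Share of regions with a mix of 21, 22 and 24 nt reads in each species, as a percentage of regions with 20 or more reads (blue) and of regions with 7.65 RPM or more (orange). Bars start at 0 and lines are 95% Wilson intervals, or, on bars at 0, the limit that 3 counts give; P. hallii and C. sativus have the tallest bars in both, and the E. grandis bars are at 0.

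Mixed regions took a smaller part of the reads than of the regions. They held 4.81% of the reads in eligible regions of *P. hallii*, 1.02% in *C. sativus*, 0.891% in *R. communis*, 0.0823% in *M. truncatula* and 0.0704% in *E. salsugineum*. Their median number of reads was 77 in *P. hallii*, 64.5 in *E. salsugineum*, 45 in *C. sativus*, 40 in *M. truncatula* and 29.5 in *R. communis*. Over all species, the remaining eligible regions were for the most part 24 nt regions, with over 50% of reads of 24 nt (194617 regions), while 5750 were 21 nt regions and 2484 were 22 nt regions by the same threshold.

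Within mixed regions, the 24 nt reads were the most numerous length in most cases. The 24 nt length was the largest of the 3 in 58.6% of mixed regions of *C. sativus*, 64.3% of *R. communis*, 69.1% of *P. hallii*, 69.6% of *M. truncatula* and 70.2% of *E. salsugineum*. Its median share was lowest in *C. sativus*, at 35.0%, and highest in *E. salsugineum*, at 40.4%, with *R. communis* (38.3%), *P. hallii* (38.5%) and *M. truncatula* (39.5%) close to the latter. The balance between the short lengths differed more. In *C. sativus*, 65.6% of mixed regions had more 22 nt than 21 nt reads, and 22 nt was the largest length in 25.2% of them. In *E. salsugineum* and *M. truncatula*, only 28.8% and 30.4% had more 22 nt than 21 nt reads, and 21 nt was the largest length in 22.2% and 19.6%. *R. communis* with 45.8% and *P. hallii* with 50.5% lay in between. As the rule bounds all 3 shares, these values are a description.

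Reads of 20, 25 and 26 nt, which the rule did not bound on their own, were few. The median share of 20 nt reads ran from 2.72% in *E. salsugineum* to 8.98% in *C. sativus*, and that of 25 nt reads from 0% in *R. communis* and *M. truncatula* to 1.29% in *P. hallii*. Between 73.2% (*E. salsugineum*) and 87.0% (*C. sativus*) of mixed regions had no 26 nt read. Regions where 20 nt reads passed 20% numbered 46 in *C. sativus*, 44 in *P. hallii*, 3 in *R. communis* and 2 each in *E. salsugineum* and *M. truncatula*.

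**Figure D2:**
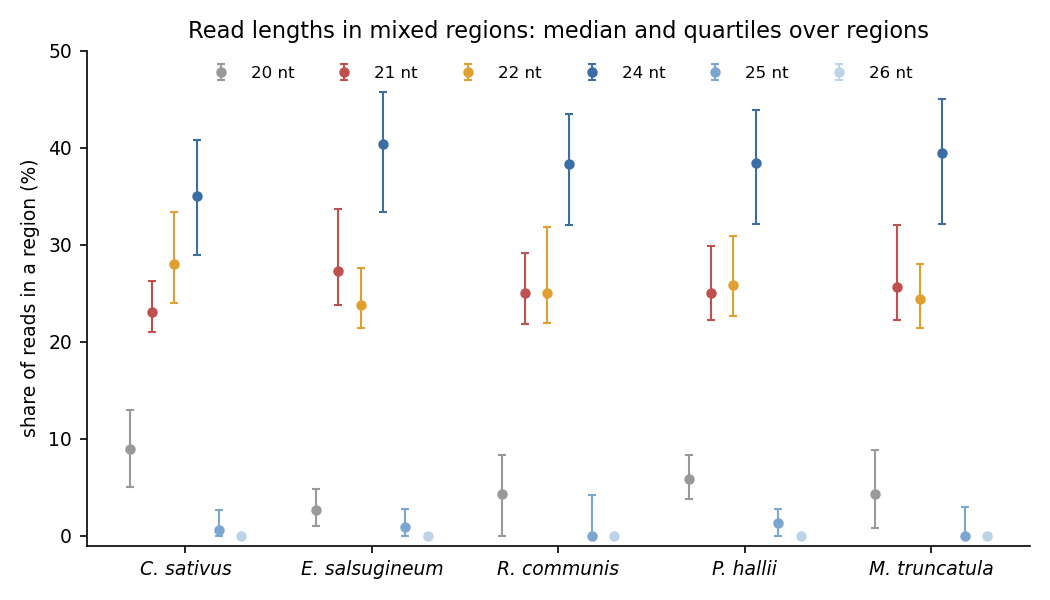
Share of the reads of a mixed region (%) by read length in 5 species, with points at the median over regions and lines from the lower to the upper quartile. The 24 nt median is highest in every species shown, from 35.0% in C. sativus to 40.4% in E. salsugineum, and only C. sativus has a 22 nt median (28.0%) well above its 21 nt median (23%).

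Few mixed regions were mixed beyond the counting error of their own reads. All 3 shares had 95% Wilson intervals inside 20% to 50% in 759 regions of *P. hallii* (10.3%), 36 of *C. sativus* (4.09%), 10 of *E. salsugineum* (5.05%), 5 of *M. truncatula* (3.38%) and 1 of *R. communis* (0.420%). In *R. communis*, 81.9% of mixed regions had 20 to 49 reads, against 35.2% in *P. hallii*. Over all species, 657 mixed regions had 20 to 22 reads, and 739 regions that met the other limits had 17 to 19. The smallest of the 3 shares lay from 20% to 22% in 3825 mixed regions, and from 18% to just under 20% in 4053 regions outside the limit. The largest share lay from 48% to 50% in 750 mixed regions, and just above 50%, up to 52%, in 294 others. Length left out 103 regions under 50 bp and 141 of 2000 bp or more. Members just inside the limits were thus about as numerous as regions just outside the read and lower share limits, and more numerous than those outside the upper share limit. The median mCHH level was 4.60% for 20 to 22 reads and 4.54% for 17 to 19 in *P. hallii*, and 20.9% and 17.3% in *C. sativus*. On the upper share limit it was 18.3% inside (35 regions) and 32.4% outside (13) in *C. sativus*, and 29.1% (21) and 41.6% (12) in *M. truncatula*. The 76 regions of *P. hallii* left out as under 50 bp had a median of 15.6%.

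Single regions show what the mix looked like. Positions are as the files give them, on the genome version of each species that the study used, with no statement of whether counting starts at 0 or 1. The regions of *P. hallii*, *C. sativus* and *R. communis* are each placed on a joined sequence named 1. Where its joins lie is not given, so neighbours and runs in these species can lie across a join. The gene or transposon at a region is not given, as these versions were used without an annotation.

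The mixed region with the most reads of all was in *P. hallii*, at 1:355734768-355735465 (697 bp). It had 9844 reads, of which 1971 were of 21 nt, 2281 of 22 nt and 4695 of 24 nt, and an mCHH level of 10.1%. The mixed region with the most reads in *C. sativus*, at 1:176714177-176715821 (1644 bp), was more even, with 536, 539 and 505 reads of 21, 22 and 24 nt among 1791 and an mCHH level of 19.5%. In *M. truncatula* the region with the most reads was at 8:13578759-13578974 (215 bp), with 117, 165 and 191 reads of the 3 lengths among 486 and an mCHH level of 28.6%. In these 3 regions, 20 nt reads were fewer than reads of each of the 3 lengths.

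The richest mixed regions of the remaining species looked different. At scaffold_9:10347614-10348001 in *E. salsugineum* (387 bp, mCHH level 17.5%), 2519 reads were spread over 573 of 20 nt, 611 of 21 nt, 541 of 22 nt, 526 of 24 nt, 197 of 25 nt and 71 of 26 nt. At 1:325832992-325833293 in *R. communis* (301 bp, mCHH level 30.4%), 873 reads were spread over 189, 191, 218, 190, 53 and 32 in the same order. Here 20 nt reads were about as frequent as those of 21 and 24 nt, so no length stood out, and whether these reads are siRNAs was not tested. The *R. communis* region was also its most even region with 100 or more reads.

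The most even regions elsewhere were at 1:40247355-40248253 in *C. sativus*, with 111, 107 and 111 reads of 21, 22 and 24 nt, at scaffold_12:3642661-3642856 in *E. salsugineum*, with 63, 59 and 68, and at 5:23711664-23712817 in *M. truncatula*, with 42, 35 and 42. In *P. hallii* the region at 1:31704486-31704985 had 35 reads of each of the 3 lengths and an mCHH level of 56.2%, against a median of 4.64% for the mixed regions of this species. An even mix thus occurred at high and at low mCHH levels, and the *M. truncatula* region had 13.2%.

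The mCHH levels of mixed regions spread widely. In *C. sativus* they ran from 4.23% at 1:4899598-4899809 to 81.3% at 1:174693698-174693793, with a median of 20.2% and quartiles of 13.5% and 33.4%. In *P. hallii* they ran from 0.487% to 94.6%, with a median of 4.64% (quartiles of 3.46% and 7.20%), and the highest level was that of 1:91645003-91645139, a region of 136 bp with 1009 reads. In *E. salsugineum* they ran from 0.471% to 67.8% (median 14.1%), in *R. communis* from 12% to 86.4% (29.2%), and in *M. truncatula* from 5.86% to 87.9% (28.7%). In *R. communis* and *M. truncatula* the highest level belonged to a region with 25 reads and with 20 reads, close to the lower limit on reads.

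Whether a mix of lengths goes with another level of CHH methylation was asked by comparing mixed regions with the other eligible regions of the same species. The median was lower in mixed regions in 4 of 5 species. It was 20.2% against 26.6% in *C. sativus*, 28.7% against 32.1% in *M. truncatula*, 4.64% against 6.15% in *P. hallii* and 14.1% against 14.4% in *E. salsugineum*, and it was 29.2% against 27.8% in *R. communis*. In every species the quartiles of the 2 groups overlapped. The difference had a mean over species of -2.05 percentage points, from -6.42 in *C. sativus* to 1.40 in *R. communis*, and did not pass the exact permutation test (p = 0.1875, adjusted p = 0.422 over 9 results).

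The share of regions above 25% mCHH differed in the same direction as the median in 4 of 5 species, with *E. salsugineum* as the exception. In *C. sativus*, 39.4% of mixed regions were above 25%, against 53.6% of all eligible regions. In *P. hallii* it was 6.28% against 10.6%, and in *M. truncatula* 60.1% against 63.8%. In *E. salsugineum* it was 16.2% against 10.7%, and in *R. communis* 70.6% against 61.7%. *E. salsugineum* thus had a lower median but more high regions, and also 4.55% of mixed regions below 5% mCHH against 2.05% of the other eligible regions, so that its mixed regions were more spread out at both ends.

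Set beside the classes with 1 main length, mixed regions took no constant place. Compared with 24 nt regions, whose main length is that of RdDM, the median mCHH level differed by -6.91 percentage points in *C. sativus*, -3.52 in *M. truncatula* and -1.76 in *P. hallii*. It differed by -0.29 in *E. salsugineum* and 1.65 in *R. communis* (mean over 5 species -2.17, exact permutation p = 0.1875, adjusted p = 0.422). Compared with 21 nt regions, it differed by 6.95 in *C. sativus*, where only 114 such regions existed with a median of 13.3%, and by 6.01 in *M. truncatula*, where they had a median of 22.7%. In these 2 species mixed regions lay between the 21 nt and the 24 nt regions. In *P. hallii*, *E. salsugineum* and *R. communis* mixed regions had lower medians than 21 nt regions, by -1.70, -1.26 and -1.20 percentage points (mean over 5 species 1.76, exact permutation p = 0.5, adjusted p = 0.633). Compared with 22 nt regions, mixed regions had a lower median in 4 of 5 species, and in *R. communis*, with 69 such regions, they differed by 3.89 (mean -2.15, exact permutation p = 0.3125, adjusted p = 0.469). In *P. hallii* and *E. salsugineum* mixed regions had the lowest median of the 4 classes.

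**Figure D3:**
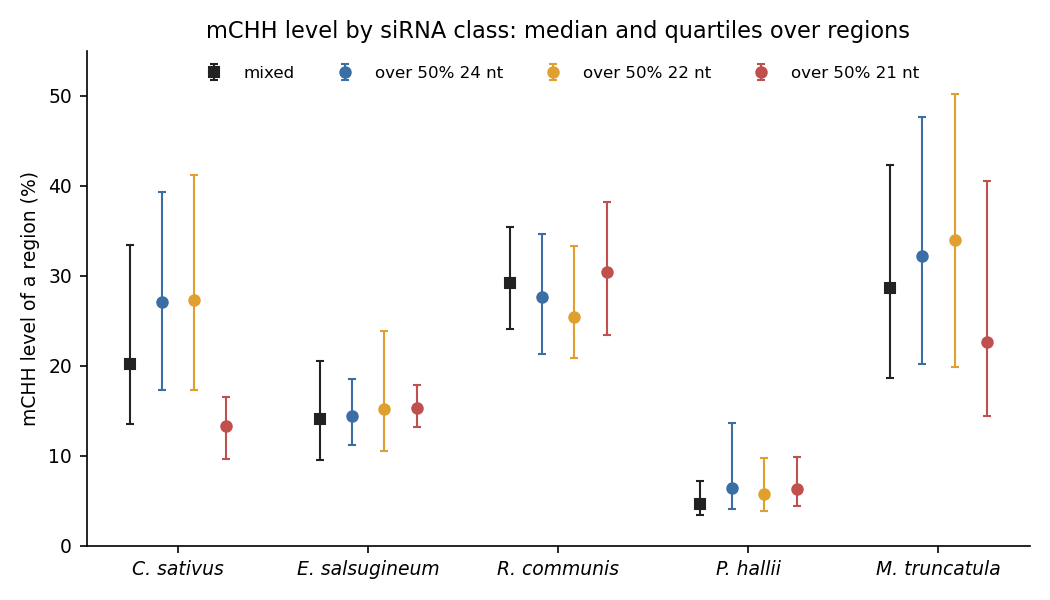
mCHH level of regions (%) in 5 species for mixed regions (black squares) and for regions with over 50% of reads of 24, 22 or 21 nt (circles), as the median with lines from the lower to the upper quartile over regions. The quartile range of mixed regions overlaps that of each other class in every species, and the 21 nt regions of C. sativus (13.3%) and M. truncatula (22.7%) lie below the mixed regions (20.2% and 28.7%).

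Mixed regions also have fewer 24 nt reads by their selection, so the comparison was repeated at matched amounts of 24 nt reads per kb, a comparison added after the data were seen. The mixed regions of a species were divided into 5 equal classes by 24 nt reads per kb, and the other group was compared within the same bounds. The difference from 24 nt regions then turned to 3.97 percentage points in *R. communis*, 3.49 in *M. truncatula*, 1.56 in *E. salsugineum* and 0.62 in *C. sativus*, and was -1.54 in *P. hallii*. The mean became 1.62, in the opposite direction, with 4 of 5 species higher (exact permutation p = 0.1875). The mean difference from all other eligible regions became 1.14, with 3 of 5 species higher, and *C. sativus* at -0.79 and *P. hallii* at -1.45. Within 3 classes of total reads (20 to 49, 50 to under 200, and 200 or more), the difference from 24 nt regions was -6.22 in *C. sativus*, -1.96 in *P. hallii*, -0.91 in *M. truncatula*, 0.61 in *E. salsugineum* and 2.38 in *R. communis*. The small difference in *E. salsugineum* was also above 0 with means (0.41) and with shares of 25% to 50% (2.36). At the same 24 nt density, mixed regions hold more reads in total by their selection, so the groups were then matched in one quantity and not in the other. The part of 24 nt density in these differences was not tested.

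**Figure D4:**
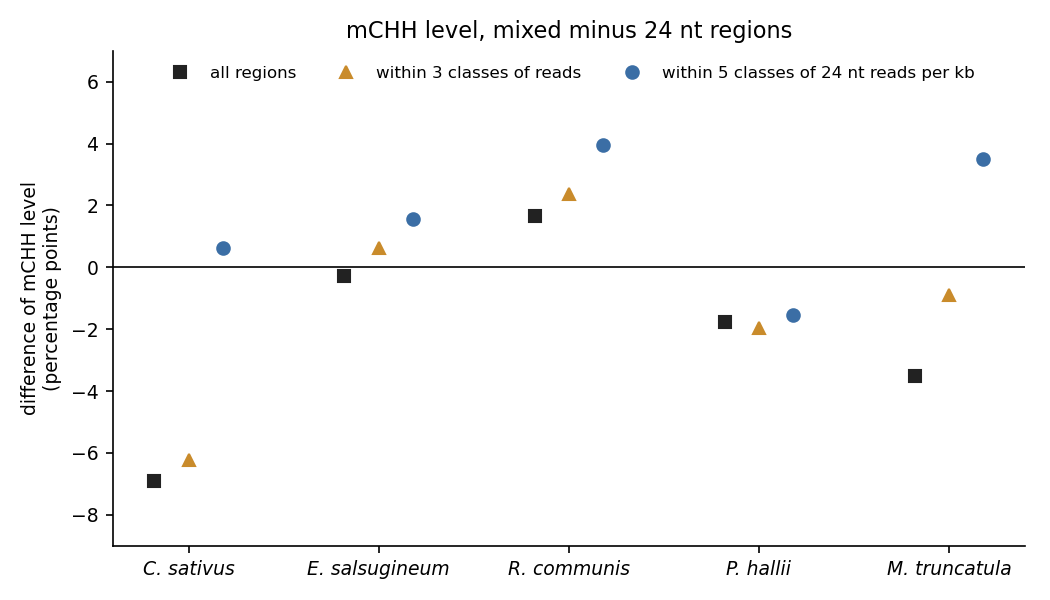
Difference of the median mCHH level between mixed and 24 nt regions in percentage points, by species: over all regions (squares), within 3 classes of total reads (triangles) and within 5 classes of 24 nt reads per kb (circles). The circles are above 0 in 4 of 5 species, and P. hallii is below 0 in all 3.

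Among mixed regions, those with more reads per kb had a higher mCHH level in 5 of 5 species. For mCHH regions in general, the paper reports more small RNAs at those with higher methylation. Read density was not compared in this way in other eligible regions, so whether the relation is particular to mixed regions was not tested. Between the upper and the lower part of the mixed regions, divided at the median reads per kb of the species, the median mCHH level was 36.7% against 22.6% in *M. truncatula*, 26.9% against 15.4% in *C. sativus*, 32.3% against 25.4% in *R. communis*, 16.4% against 13.1% in *E. salsugineum* and 5.05% against 4.30% in *P. hallii*. The mean difference was 7.31 percentage points, from 0.75 in *P. hallii* to 14.1 in *M. truncatula*, with p = 0.0625 by the exact permutation test, the smallest it can give, and an adjusted p of 0.281. From the lowest to the highest quartile of reads per kb, the median went from 13.4% to 28.8% in *C. sativus*, from 22.7% to 40.8% in *M. truncatula*, from 25.2% to 34.4% in *R. communis* and from 4.09% to 5.39% in *P. hallii*. In *E. salsugineum* the highest median was in the 3rd quartile (18.1%), and the 4th (14.3%) was near the 1st (12.8%).

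The paper found that regions with more methylation were often smaller in most species. Reads per kb has the length of a region in it, and longer mixed regions had the lower mCHH level in each of the 5 species compared. Divided at the median length, the longer ones had a median of 15.6% against 28.7% for the shorter in *C. sativus*, 23.4% against 38.8% in *M. truncatula*, 26.3% against 31.9% in *R. communis*, 13.1% against 16.4% in *E. salsugineum* and 4.14% against 5.31% in *P. hallii*. When upper and lower read density were compared within the shorter and within the longer regions, a comparison added after the data were seen, the difference was above 0 in 5 of 5 species, from 0.64 in *P. hallii* to 11.03 in *M. truncatula* (mean 6.19, exact permutation p = 0.0625). With 100 or more reads it was -0.38 in *E. salsugineum*, between 38 and 39 regions.

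**Figure D5:**
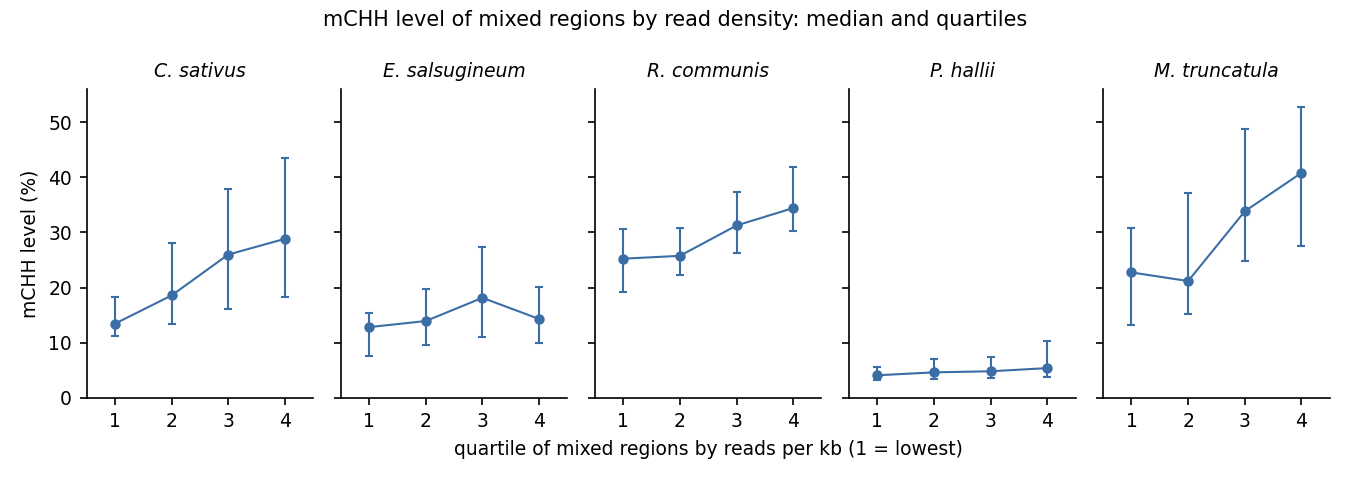
mCHH level of mixed regions (%) by quartile of reads per kb (1 is the lowest) in 5 species, as the median with lines from the lower to the upper quartile over regions. The 4th quartile has a higher median than the 1st in each species, from 5.39% against 4.09% in P. hallii to 40.8% against 22.7% in M. truncatula.

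The share of 24 nt reads, in contrast, went with the mCHH level in no common direction. Mixed regions above the median 24 nt share of their species had an mCHH level of 22.1% against 19% in *C. sativus*, 29.4% against 28.3% in *M. truncatula* and 4.72% against 4.56% in *P. hallii*, but 28.9% against 30.1% in *R. communis* and 12.8% against 18.1% in *E. salsugineum*. The mean difference was -0.41 percentage points (exact permutation p = 0.8125, adjusted p = 0.8125). In *E. salsugineum* the median was lower at higher shares, from 19.1% in 37 regions with 20% to 30% of 24 nt reads, over 16.6% in 50 regions with 30% to 40%, to 13.1% in 111 regions with 40% to 50%. Without *E. salsugineum* the mean difference was 0.81 percentage points.

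The length of mixed regions differed from that of other eligible regions in one species above all. In *E. salsugineum* their median was 216 bp, and that of the others 421 bp, a log2 ratio of -0.96. In *M. truncatula* it was 172.5 bp against 197 bp, and in *P. hallii* 313 bp against 333 bp. Mixed regions were the longer ones in *R. communis*, with 488 bp against 470 bp, and in *C. sativus*, with 357 bp against 304 bp. The mean log2 ratio was -0.19 (exact permutation p = 0.5625, adjusted p = 0.633), and 0.0013 without *E. salsugineum*.

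The nearest eligible region of a mixed region was itself mixed more often than that of another eligible region in 5 of 5 species. The nearest eligible region was mixed for 880 of 7338 mixed regions of *P. hallii* (12%, 95% Wilson interval 11.3% to 12.8%), against 7.06% of its other eligible regions. It was mixed for 53 of 880 in *C. sativus* (6.02%, 4.63% to 7.79%) against 2.95%, for 12 of 198 in *E. salsugineum* (6.06%, 3.50% to 10.3%) against 0.303%, and for 11 of 238 in *R. communis* (4.62%, 2.60% to 8.09%) against 2.69%. In *M. truncatula* it was mixed for 2 of 147 (1.36%, 0.374% to 4.82%) against 0.292%. Of these regions, 596 in *P. hallii*, 38 in *C. sativus*, 6 each in *E. salsugineum* and *R. communis* and both in *M. truncatula* were in pairs in which each is the nearest of the other, so they are not independent counts and the intervals are too narrow. The ratio of the 2 shares was 20.03 in *E. salsugineum* and between 1.70 and 4.66 in the other species. The mean difference was 3.35 percentage points, from 1.07 to 5.76 (exact permutation p = 0.0625, the smallest it can give, adjusted p = 0.281). It was below 0 in *R. communis* and *M. truncatula* with at least 50 reads per region (-1.18 and -0.21, with 43 and 60 mixed regions left) and with at least 100 (-0.62 and -0.12). In *M. truncatula* it was also below 0 with the nearest region at least 1 kb away (-0.29) and with shares of 25% to 50% (-0.064). With only the members whose shares had Wilson intervals inside the limits, it was -0.11 in *C. sativus* (36 members) and -0.018 in *E. salsugineum* (10), and 14.2 in *P. hallii* (759), while *R. communis* and *M. truncatula* had under 10 such members and gave no value. For each value below 0, no mixed region had a mixed nearest region. With so few members and such low shares among the others, hardly any was to be expected. These values therefore cannot tell a lower share from an equal one.

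Regions are at least 127 bp apart, longer than a read, so no single alignment reached into both of a pair, though a read that matches several places could be counted in both. For most mixed regions the nearest eligible region was of another class. It was a 24 nt region for 45.8% of mixed regions in *C. sativus*, where such regions made up 52.1% of eligible regions, for 60.9% in *R. communis* (65.1%), 61.2% in *P. hallii* (69.9%), 67.2% in *E. salsugineum* (94.6%) and 94.6% in *M. truncatula* (94.3%). In *E. salsugineum*, 12.6% of mixed regions lay next to a 21 nt region, a class with 2.14% of its eligible regions. In *R. communis* it was 12.2%, near the 14.4% that 21 nt regions made up there. In the other species, 0.680% to 2.26% lay next to a 21 nt region, a class that made up 0.382% to 2.27% of their eligible regions.

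Mixed regions that followed each other without another eligible region in between formed runs. In *P. hallii*, where mixed regions made up 7.19% of eligible regions, 20.8% of mixed regions were in runs of 2 or more. How many would be in runs from that share alone was not computed. In this species, 5 runs had 5 regions. One of them spanned 7.68 kb at 1:51339943-51347622, with mCHH levels from 2.78% to 7.38%, 287 to 730 reads per region, and 24 nt shares from 25.8% to 36.3%. In *E. salsugineum* the longest run had 4 regions in 2.03 kb at scaffold_7:10042208-10044237, with 54 to 144 reads per region and mCHH levels from 13.4% to 30%. The longest run had 3 regions in *C. sativus*, at 1:13277961-13285737, and in *R. communis*, at 1:19719753-19727743, and 2 regions in *M. truncatula*, at 4:21658794-21659523. Regions of these runs each had their own set of read counts.

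No stretch compared held most of the mixed regions of a species. Over the 8 chromosomes of *M. truncatula*, mixed regions made up 0.215% to 0.468% of eligible regions, with 11 to 27 per chromosome. Over the 22 sequences of *E. salsugineum* with 300 or more eligible regions it was 0.0835% to 1.14%, with 1 to 26 mixed regions each. In 10 equal stretches of the joined sequence, the share ran from 5.46% to 8.98% in *P. hallii*, from 2.11% to 4.10% in *C. sativus* and from 1.68% to 3.27% in *R. communis*. The order of the pieces in a joined sequence is not given, so these stretches are not known to be places on a chromosome.

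The mCHH level of the nearest region of any kind, which the rule did not use, was lower beside mixed regions in 3 of 5 species. It had a median of 18% next to mixed regions against 23.1% next to other eligible regions in *C. sativus*, 21.8% against 26% in *M. truncatula* and 4.85% against 5.98% in *P. hallii*. It was 15% against 14.0% in *E. salsugineum* and 27.8% against 27.0% in *R. communis* (mean -1.72 percentage points, exact permutation p = 0.3125, adjusted p = 0.469).

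Reads that match several places can give copies of a sequence the same counts. Few mixed regions with 50 or more reads shared all 6 read counts with another region. Regions that share only part of their reads are not found in this way, and how many do was not tested. Among mixed regions with 50 or more reads, 34 of 4757 in *P. hallii* and 2 of 43 in *R. communis* had the same 6 read counts as another region, and 0 of 418 did in *C. sativus*, 0 of 121 in *E. salsugineum* and 0 of 60 in *M. truncatula*. Among the other eligible regions with 50 or more reads, 0.825% (*C. sativus*) to 3.01% (*R. communis*) shared their counts. The *R. communis* pair, at 1:109426048-109426161 and 1:174039959-174040051, shared 39, 69 and 56 reads of 21, 22 and 24 nt, with mCHH levels of 31.1% and 35.9%. In *E. salsugineum*, the regions at scaffold_12:4323459-4323570 and scaffold_18:3546783-3546894 were both 111 bp long, and shared 7, 6 and 12 reads of the 3 lengths and an mCHH level of 6.94%. The largest set of mixed regions with shared counts, 8 in *P. hallii*, had only 20 reads each, 4, 6 and 10 of the 3 lengths, with lengths from 142 to 880 bp and mCHH levels from 2.47% to 8.20%. The mixed regions had 6839 distinct sets of counts in *P. hallii*, 856 in *C. sativus*, 233 in *R. communis*, 197 in *E. salsugineum* and 146 in *M. truncatula*.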

How the data were processed

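Leaf small RNA libraries and mCHH regions of 6 species were used, with 1 library per species. The authors trimmed MethylC-seq reads with Cutadapt, mapped them with bowtie, called methylated sites by a binomial test, and joined nearby windows holding methylated CHH sites. The mCHH level was deposited as a fraction, and is given here in percent. The small RNA values were also deposited as a fraction: after cleaning with the UEA toolkit and alignment with PatMan, the authors gave the reads of a length at a region over the mapped hits in that library.

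Dividing by the smallest value of a library gave whole reads for 100% of values (within 0.01). The genome versions are those of the study, and no genome sequence of these versions was used, so no sequences are shown. The members and lists were chosen with earlier results of these data known. Each species gave 1 value per comparison, from at least 10 regions in each group. These values entered an exact two-sided sign-flip permutation test with Benjamini-Hochberg adjustment over 9 results. The p-values measure the spread between species only. Named regions are, in each species, those with the most reads, the highest and lowest mCHH level and the most even shares, the longest run, and the largest set with the same counts. Alternatives changed the limits on reads, shares and length, the mean for the median, copies, classes of reads and the distance to neighbours, and 3 were added after the data were seen: members with Wilson intervals inside the limits, classes of 24 nt reads per kb, and read density within shorter and longer regions. The comparisons were tested on simulated data. The tools were SciPy 1.17.1, statsmodels 0.14.6, pandas 2.3.3, NumPy 2.4.6, Matplotlib 3.10.9 and Python 3.11.15. Gene expression tables of 3 species were not used here.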

Additional observations from a re-analysis of the deposited data

Results flagged for a closer look

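In 7 comparisons, some species differed in sign from the others. With 1 library per species these differences between species were not tested. The median mCHH level of mixed regions was higher in *R. communis* than that of other eligible regions (1.40 percentage points), of 24 nt regions (1.65) and of 22 nt regions (3.89), and lower in the other 4 species. Against 21 nt regions, *C. sativus* (6.95) and *M. truncatula* (6.01) were higher and the other 3 species lower. The log2 ratio of region length was above 0 in *C. sativus* (0.23) and *R. communis* (0.054) only. The nearest region had a higher mCHH level beside mixed regions in *E. salsugineum* (0.92) and *R. communis* (0.89) only. Mixed regions with a higher share of 24 nt reads had a lower mCHH level in *E. salsugineum* (-5.29) and *R. communis* (-1.16), and a higher one in the other 3.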

How the results depend on the processing

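Of 74 alternatives to the 9 results, 67 kept the direction of the mean over species and 7 turned it. No result could pass the threshold under any of them, since 5 species give no p below 0.0625. Within classes of 24 nt reads per kb, the mCHH difference turned to 1.14 percentage points against other eligible regions and to 1.62 against 24 nt regions. The log2 length ratio was 0.11 with members whose Wilson intervals lay inside the limits. The difference by 24 nt share was 3.60 with 50 reads, 2.81 with 100 reads (4 species), 0.30 with all lengths and 0.23 with means. With 50 and 100 reads the largest change was in *M. truncatula*. Its value went from 1.10 to 17.6 (30 against 30 regions) and to 12.1 (11 against 11 regions). The cause of these turns was not tested. Leaving out each species in turn gave -2.91 to -0.96 percentage points against other eligible regions, -3.12 to -0.98 against 24 nt regions, 0.46 to 2.63 against 21 nt regions and -3.66 to -0.93 against 22 nt regions. It gave -0.30 to 0.0013 for log2 length, 2.75 to 3.92 for mixed neighbours, -2.38 to -0.87 for the nearest region, -1.30 to 0.81 by 24 nt share and 5.62 to 8.95 by read density. Of 347 species values, 40 changed sign under an alternative. No paired analysis was possible because each species has 1 small RNA library and so no replicate numbers to pair; mixed and other regions were compared within each library. Counting error limits the shares of most mixed regions, as few had all 3 Wilson intervals inside the limits. *E. grandis* had the fewest mapped hits, and what this does to its number of mixed regions was not tested.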
